A study of Mus musculus with 12 samples.

Results

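The genes described here carry out the breakdown of leucine and of the other branched-chain amino acids in mitochondria. There were 9 members, namely Ivd, Mccc1, Mccc2, Auh, Bcat2, Bckdha, Bckdhb, Dbt and Bckdk, out of 54532 genes listed in the read count tables, each found by matching its mouse symbol to 1 Ensembl gene identifier. Ivd was selected on its KO against WT difference in read counts in these same libraries, so its KO against WT values are given as a description with no test. The other 8 were taken for their place in the pathway. RNA sequencing measured them in pancreatic islets of male C57BL/6 mice, labelled as 40 weeks old, in 4 groups of 3 libraries.

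The HFD KO group came from pancreatic beta cell selective Sirt3 knockout mice whose high fat diet supplied 60% of energy as fat for 36 weeks after 6, 5 and 6 weeks on standard diet in replicates 1, 2 and 3. The HFD WT group came from wild type mice that received the same diet for 36 weeks after 4 weeks on standard diet. The STD KO and STD WT groups came from knockout and wild type mice kept on the standard diet, with 6.2% fat, throughout. The period before the high fat diet therefore differed together with genotype, and the stated periods of the HFD KO mice add up to more than their labelled age. The promoter that drives the deletion, and whether wild type mice carried that transgene, is not given in the sources used here. Whether replicate libraries represent different mice is not labelled, so p-values measure the spread between these libraries, which may be technical.

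Libraries held 16037709 to 20864920 counts, and 16076 genes passed the filter on low counts, all 9 members among them. Sirt3, which encodes the mitochondrial deacetylase targeted in these mice, had 7.85, 11.5 and 6.21 CPM (read counts scaled to library size with the trimmed mean of M-values) in HFD KO replicates 1, 2 and 3, against 11.4, 9.30 and 11.8 CPM in HFD WT. It had 6.59, 5.97 and 5.86 CPM in STD KO, against 9.04, 11.3 and 11.5 CPM in STD WT. The library labelled HFD KO 2 thus lay within the wild type range of Sirt3. These are counts over the whole gene, in islets that also contain cells other than beta cells. All 10 beta cell markers examined were detected, and their summed level was 264700 to 333700 CPM in HFD KO, 282600 to 363400 CPM in HFD WT, 215200 to 314700 CPM in STD KO and 267900 to 353600 CPM in STD WT. Of these markers, Slc30a8 and Ucn3 fell in HFD KO against HFD WT by the test used below. Acinar markers summed to 14020 to 21000 CPM in HFD KO, 17200 to 30390 CPM in HFD WT, 8803 to 25960 CPM in STD KO and 5445 to 26500 CPM in STD WT. The lowest of these acinar sums, 5445 CPM, was that of STD WT 3. In bulk islets, fewer cells of a type and less RNA per cell cannot be told apart.

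Branched-chain amino acids first lose their amino group to a branched-chain aminotransferase, mitochondrial Bcat2 or cytosolic Bcat1. The resulting keto acids enter the branched-chain ketoacid dehydrogenase complex, which a kinase, Bckdk, switches off by phosphorylation. The leucine product, isovaleryl-CoA, is oxidised by Ivd, carboxylated by the biotin enzyme 3-methylcrotonyl-CoA carboxylase and hydrated by Auh before it is split into acetyl-CoA and acetoacetate. In islets, leucine is known as a fuel for insulin secretion that acts through its own breakdown and through activation of glutamate dehydrogenase.

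Promoter sequences are shown first for 3 genes that contrast in the comparisons below. Ivd was the member chosen for its difference, Mccc1 encodes a subunit of the enzyme that takes up the product of Ivd, and Bcat1, which is not a member, had the largest KO over WT fold change among the pathway genes described here. Of the 2 windows listed for Bcat1, the first listed is shown. Each window runs 5′ to 3′ from 250 bases before to 50 bases after the RefSeq start of the gene (build GRCm38.p6), and capitals mark a match to TTCNNNGAA, the letters bound by STAT5-type factors.
Ivd (chr2:118861744-118862043, plus strand): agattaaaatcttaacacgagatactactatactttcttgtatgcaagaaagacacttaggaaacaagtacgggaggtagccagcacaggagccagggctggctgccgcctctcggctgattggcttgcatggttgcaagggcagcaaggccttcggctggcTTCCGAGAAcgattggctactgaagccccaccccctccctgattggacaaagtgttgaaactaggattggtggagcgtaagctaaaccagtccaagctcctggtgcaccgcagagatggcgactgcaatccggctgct
Mccc1 (chr3:36000629-36000928, minus strand): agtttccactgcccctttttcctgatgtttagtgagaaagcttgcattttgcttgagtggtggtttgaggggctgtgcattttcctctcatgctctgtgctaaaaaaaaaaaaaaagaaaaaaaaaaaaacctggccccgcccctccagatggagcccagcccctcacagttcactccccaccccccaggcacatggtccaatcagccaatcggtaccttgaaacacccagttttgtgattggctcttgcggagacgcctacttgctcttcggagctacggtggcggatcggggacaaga
Bcat1 (chr6:145076108-145076407, minus strand): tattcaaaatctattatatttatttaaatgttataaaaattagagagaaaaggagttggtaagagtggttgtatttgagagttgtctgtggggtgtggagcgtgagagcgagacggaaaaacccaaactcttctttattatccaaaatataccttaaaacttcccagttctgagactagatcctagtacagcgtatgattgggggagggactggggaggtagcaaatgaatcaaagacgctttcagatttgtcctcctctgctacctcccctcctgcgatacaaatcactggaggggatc
The match began 88 bases before the start in Ivd (position -88), while the Mccc1 window and both Bcat1 windows held none. The window of Gcdh, a non-member described below, was also searched and held a match at position -232. Promoters were present for 8 of the 9 members, with 10 windows in all, and the Ivd window was the 1 member window that held a match. Over all mouse genes, 8.3% of 32851 promoter windows held it, so 1 match in 10 windows was near the background. The motif reads the same on both strands. The E-box CACGTG, also the same on both strands, occurred in 1 member window, that of Mccc2, against 7.15% of all windows. The sequence TCAAGGTCA, of the type bound by estrogen-related receptors and searched on both strands, occurred in no member window, against 0.423% of all windows.

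Ivd, the dehydrogenase that oxidises isovaleryl-CoA, lies at chr2:118861954-118882909 on the plus strand (coordinates of GENCODE M21, mm10). It had 293, 258 and 318 CPM in HFD KO replicates 1, 2 and 3, against 64.6, 59.8 and 71.0 CPM in HFD WT. In STD KO it had 282, 298 and 287 CPM, against 61.6, 69.8 and 86.9 CPM in STD WT. The lowest knockout library, HFD KO 2 at 258 CPM, stood above the highest wild type library, STD WT 3 at 86.9 CPM, so the genotypes did not overlap on either diet. The log2 fold change, KO over WT, was 2.15 (SE 0.15) on the high fat diet and 1.99 (SE 0.15) on the standard diet, which is 4.45-fold and 3.98-fold. Without the libraries labelled HFD KO 2 and STD WT 3 the log2 fold changes were 2.27 and 2.17. These values chose the gene and support nothing further. The difference between the diets was not used to choose it, and there Ivd gave a log2 fold change, HFD over STD, of 0.00 in KO (SE 0.14, adjusted p = 0.997) and -0.16 in WT (SE 0.15, adjusted p = 1), by the quasi-likelihood test of edgeR, adjusted over 16076 genes by the Benjamini-Hochberg method. The 95% interval of the diet difference ran from -0.31 to 0.32 in KO and from -0.48 to 0.16 in WT. The test of whether the KO against WT difference itself changed with diet gave 0.16 on the log2 scale (SE 0.21, adjusted p = 0.819).

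**Figure D1:**
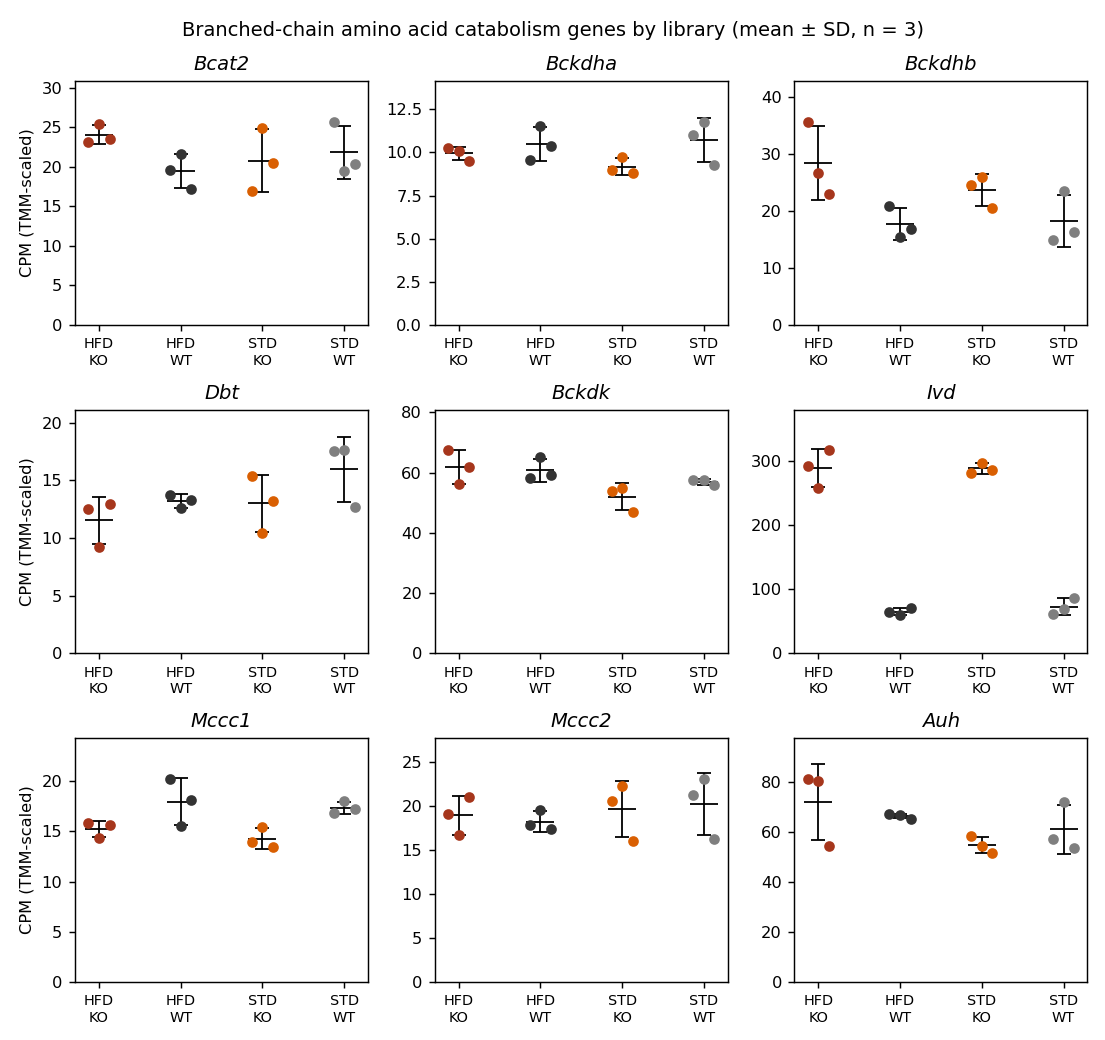
Level of each of the 9 members in CPM (TMM-scaled, linear axis from 0) in the 3 libraries of HFD KO, HFD WT, STD KO and STD WT, with points for libraries and bars for the mean and SD (n = 3). Ivd lay between 258 and 318 CPM in all 6 KO libraries and between 59.8 and 86.9 CPM in all 6 WT libraries, while the other 8 members had log2 fold changes, KO over WT, of -0.30 to 0.68.

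Apart from Ivd, no member passed the threshold (adjusted p under 0.05) in KO against WT. In HFD KO against HFD WT, 0 of 8 members were called, where 7.4% of all genes tested were (1189 genes, or 1969 with a block for the replicate number among the HFD libraries), and 1 of 8 had an unadjusted p under 0.05, where 24.3% of all genes did. In STD KO against STD WT, 0 of 8 were called, where 1.71% of all genes were, and 0 of 8 had an unadjusted p under 0.05, where 8.66% of all genes did. Averaged over both diets, 0 of 8 were called, where 7.77% of all genes were, and 2 of 8 had an unadjusted p under 0.05, where 21.3% of all genes did. The median log2 fold change of the 8 was 0.04 on the high fat diet (range -0.23 to 0.68) and -0.14 on the standard diet (range -0.30 to 0.38), and that of all genes was 0.00 and -0.02 on the same diets. The groups did not overlap for 2 of 8 members on the high fat diet, Bcat2 and Bckdhb, both higher in KO, where 24.5% of all genes had groups apart and 11.2% had KO higher. On the standard diet they did not overlap for 2 of 8, Mccc1 and Bckdk, both lower in KO, where 14.8% of all genes had groups apart and 7.32% had KO lower. Read against these shares, the counts of members give no result about the pathway.

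The first step is catalysed by Bcat2, the mitochondrial aminotransferase, on chromosome 7. It had 23.2, 25.5 and 23.6 CPM in HFD KO, against 19.6, 21.6 and 17.2 CPM in HFD WT, and 17.0, 24.9 and 20.5 CPM in STD KO, against 25.7, 19.5 and 20.4 CPM in STD WT. The HFD KO libraries were all above the HFD WT libraries, whereas the STD groups overlapped. KO over WT, this gave a log2 fold change of 0.31 on the high fat diet (95% interval -0.05 to 0.67, adjusted p = 0.280) and -0.07 on the standard diet (-0.43 to 0.29, adjusted p = 0.999). An antisense gene that overlaps Bcat2 had 79 counts over the 12 libraries, against 4679 of Bcat2, and the strand setting of the counting is not given in the sources used here.

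The ketoacid dehydrogenase complex consists of the decarboxylase subunits Bckdha and Bckdhb and the transacylase Dbt. Bckdhb, at chr9:83925145-84124240 on the plus strand, was the member closest to the threshold. It had 35.6, 26.5 and 22.9 CPM in HFD KO, against 20.8, 15.3 and 16.9 CPM in HFD WT, and 24.4, 25.8 and 20.5 CPM in STD KO, against 14.9, 23.4 and 16.2 CPM in STD WT. All HFD KO libraries were above all HFD WT libraries, while STD WT 2 lay among the STD KO libraries. Its log2 fold change was 0.68 on the high fat diet (95% interval 0.21 to 1.15, adjusted p = 0.0776), 0.38 on the standard diet (-0.09 to 0.85, adjusted p = 0.788) and 0.53 averaged over diets (0.20 to 0.86, adjusted p = 0.0569). A block for the replicate number among the HFD libraries, where same-numbered libraries deviated together, was chosen after seeing the data. With it the adjusted p became 0.0413 on the high fat diet and 0.0301 over both diets. With a block over all 12 libraries no member was called in these comparisons. A correction for gene length gave 0.51 on the high fat diet (adjusted p = 0.164 by edgeR's quasi-likelihood test). Over the 24 alternatives for the high fat comparison the adjusted p ranged from 0.0316 to 0.288 and passed in 6. The member therefore passed or missed the threshold according to the model, with the same direction in all of them.

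Bckdha, the partner of Bckdhb in the decarboxylase, on chromosome 7, had 10.3, 10.1 and 9.51 CPM in HFD KO, against 9.55, 11.5 and 10.3 CPM in HFD WT, and 8.96, 9.73 and 8.79 CPM in STD KO, against 11, 11.8 and 9.30 CPM in STD WT. The groups overlapped on both diets. In log2 fold change, KO over WT, Bckdha gave -0.07 on the high fat diet (95% interval -0.39 to 0.25, adjusted p = 0.805) and -0.22 on the standard diet (-0.54 to 0.10, adjusted p = 0.858). B3gnt8, which lies on the opposite strand and overlaps Bckdha, had 425 counts over the 12 libraries, against 2178 of Bckdha, so reads of the pair may not be fully separated. Dbt, the transacylase, on chromosome 3, had 12.5, 9.18 and 12.9 CPM in HFD KO, against 13.7, 12.6 and 13.3 CPM in HFD WT. In STD KO it had 15.4, 10.5 and 13.2 CPM, against 17.6, 17.6 and 12.7 CPM in STD WT. Its groups overlapped on both diets, with log2 fold changes of -0.19 on the high fat diet (95% interval -0.62 to 0.23, adjusted p = 0.582) and -0.30 on the standard diet (-0.72 to 0.13, adjusted p = 0.858).

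Bckdk, the kinase that inactivates the complex, on chromosome 7, had 67.5, 56.1 and 62.0 CPM in HFD KO, against 58.2, 65.1 and 59.1 CPM in HFD WT, and 54.0, 55.1 and 46.9 CPM in STD KO, against 57.4, 57.7 and 55.9 CPM in STD WT. It was lower in each STD KO library than in any STD WT library, while the HFD groups overlapped. Its log2 fold change was 0.03 on the high fat diet (95% interval -0.21 to 0.27, adjusted p = 0.919) and -0.13 on the standard diet (-0.37 to 0.11, adjusted p = 0.966). These are the narrowest intervals among the 8 members.

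The carboxylase downstream of Ivd has a biotin-carrying subunit, Mccc1, on chromosome 3, and a partner subunit, Mccc2, on chromosome 13. Mccc1 had 15.8, 14.4 and 15.7 CPM in HFD KO, against 20.3, 15.5 and 18.2 CPM in HFD WT, and 14.0, 15.5 and 13.4 CPM in STD KO, against 16.9, 18.0 and 17.2 CPM in STD WT. Each STD KO library was below each STD WT library, and HFD WT 2 was within the range of HFD KO. For Mccc1 the log2 fold change was -0.23 on the high fat diet (95% interval -0.52 to 0.05, adjusted p = 0.290), -0.28 on the standard diet (-0.56 to 0.00, adjusted p = 0.582) and -0.26 over both diets (-0.46 to -0.06, adjusted p = 0.123). Mccc2 had 19.0, 16.6 and 21 CPM in HFD KO, against 17.8, 19.5 and 17.3 CPM in HFD WT, and 20.5, 22.2 and 16 CPM in STD KO, against 21.2, 23.1 and 16.2 CPM in STD WT. Its groups overlapped on both diets and its log2 fold changes were 0.06 (95% interval -0.31 to 0.43, adjusted p = 0.880) on the high fat diet and -0.04 (-0.41 to 0.32, adjusted p = 0.999) on the standard diet.

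Auh, the hydratase of the next step, on chromosome 13, had 81.3, 80.4 and 54.4 CPM in HFD KO, against 67.1, 66.6 and 65.4 CPM in HFD WT. In STD KO it had 58.2, 54.4 and 51.6 CPM, against 57.1, 72.1 and 53.7 CPM in STD WT. HFD KO 3 was low and the other HFD KO libraries were high, so that the WT libraries fell between them. The log2 fold change was 0.12 on the high fat diet (95% interval -0.24 to 0.47, adjusted p = 0.707) and -0.16 on the standard diet (-0.51 to 0.20, adjusted p = 0.999).

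**Figure D2:**
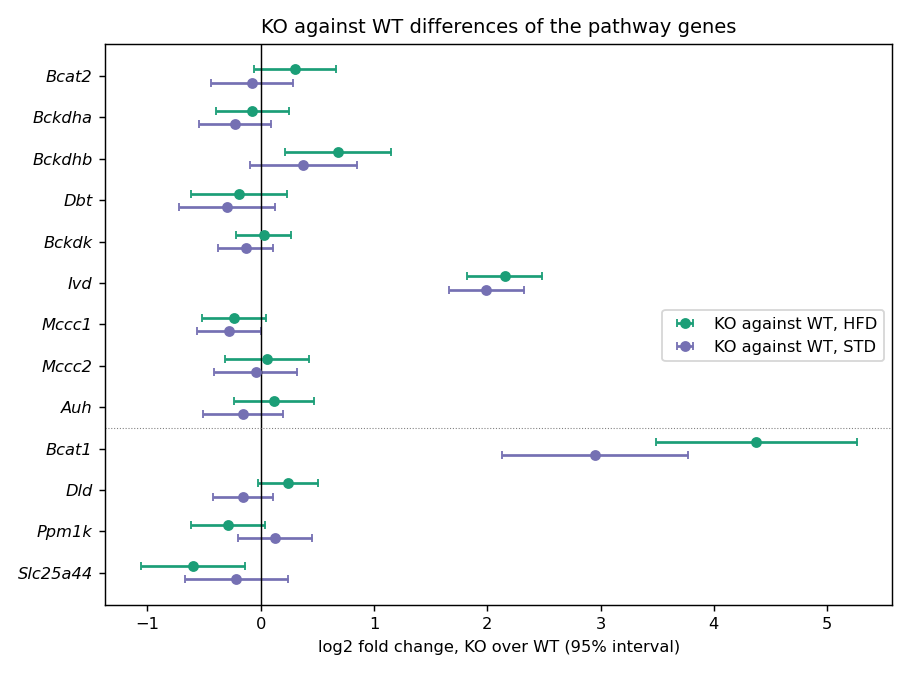
Log2 fold change, KO over WT, of the 9 members (above the dotted line) and of 4 genes of the first steps and their regulation (below it), with 95% intervals, on the high fat diet (green) and on the standard diet (purple). Ivd, whose interval is drawn as a description, stood at 2.15 and 1.99 and Bcat1 at 4.38 and 2.95, and the other members lay between -0.30 and 0.68.

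Neither diet comparison called a member. In HFD KO against STD KO, 0 of 9 members were called, where 0.0435% of all genes were, and 2 of 9, Auh and Bckdk, had an unadjusted p under 0.05, where 12.5% of all genes did. Auh gave a log2 fold change, HFD over STD, of 0.40 in KO (SE 0.16, adjusted p = 0.366), and Bckdk 0.25 (SE 0.11, adjusted p = 0.386). Bckdk had non-overlapping groups, higher in HFD, in KO and in WT, and these were the only such cases among the 9 members, where 12.1% of all genes in KO and 9.59% in WT had groups apart and 5.91% and 5.06% were higher in HFD. In HFD WT against STD WT, 0 of 9 members were called by edgeR's quasi-likelihood test, where 0% of all genes were, and 0 of 9 had an unadjusted p under 0.05, where 4.74% of all genes did. Without the library HFD KO 3, Auh passed in the KO diet comparison with a log2 fold change of 0.58 and an adjusted p of 0.0395, and 801 genes in place of 7 passed overall.

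The test of whether the KO against WT difference depended on diet called 0 of 9 members, where 0% of all genes were called, and none of the 9 had an unadjusted p under 0.05, where 7.91% of all genes did. The estimates, HFD difference minus STD difference, were all positive and ran from 0.05 for Mccc1 to 0.38 for Bcat2, with a median of 0.16 against 0.01 for all genes. Over 22 alternatives the sign changed in 5 for Mccc2, in 4 for Mccc1 and in 3 for Dbt, and the other members kept theirs. Over all genes this estimate fell with gene length (Spearman's rho = -0.275 across genes, which are not independent replicates). The 9 estimates share the same 12 libraries and the same scaling.

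Levels per gene length were compared with the deposited FPKM. Ivd was the most abundant member in all 4 groups, at 264 ± 51.4 FPKM in HFD KO, 59.1 ± 5.83 in HFD WT, 296 ± 11.5 in STD KO and 67.5 ± 9.09 in STD WT (SD, n = 3). Auh came next, at 59.6 ± 7.77 FPKM in HFD KO, 55.7 ± 3.48 in HFD WT, 51.8 ± 3.92 in STD KO and 52.5 ± 7.91 in STD WT, so that in HFD WT Ivd and Auh did not differ beyond their spread. Bckdk followed, at 41.6 ± 5.64 FPKM in HFD KO and 41.0 ± 5.02 in HFD WT. Bckdhb came after Bckdk, at 27.4 ± 4.92 FPKM in HFD KO, and equalled Mccc2 within the spread in HFD WT, at 17.1 ± 1.54 against 17.1 ± 2.01 FPKM. Bcat2 and Dbt had 16.8 ± 1.45 and 9.34 ± 2.32 FPKM in HFD KO, against 13.7 ± 2.03 and 10.6 ± 0.33 FPKM in HFD WT. Mccc1 and Bckdha were the lowest and did not differ beyond their spread in HFD KO, at 6.90 ± 0.90 and 7.22 ± 0.42 FPKM, or in HFD WT, at 8.07 ± 0.59 and 7.65 ± 1.21 FPKM.

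**Figure D3:**
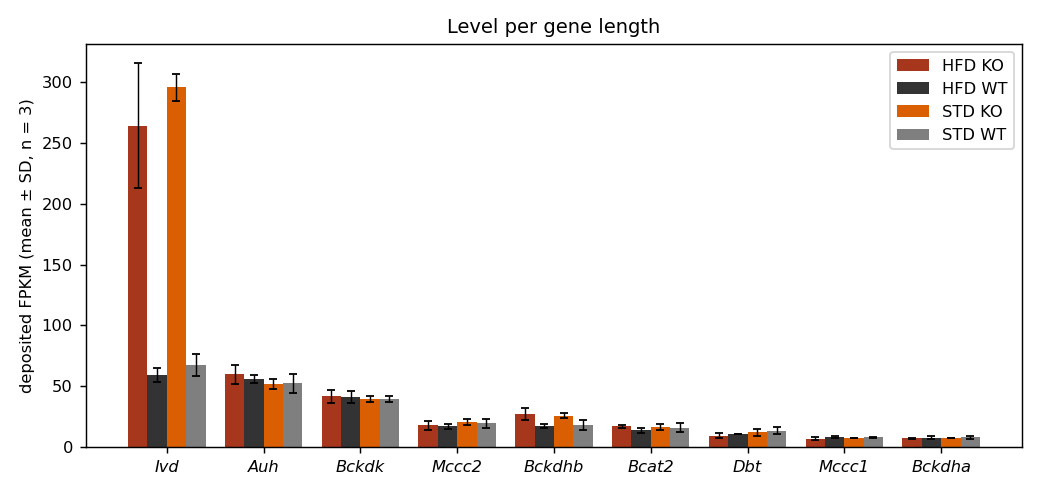
Deposited FPKM of the 9 members (linear axis from 0), with bars for the mean and SD (n = 3) of HFD KO, HFD WT, STD KO and STD WT, ordered by the level in STD WT. Ivd reached 264 and 296 FPKM in the KO groups, and Mccc1 and Bckdha lay below 10 FPKM in every group.

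The order of these levels rests on the gene lengths that the authors used, which were shorter than the merged exons of GENCODE M21. The length was 1062 bases for Ivd, where the merged exons span 5505 bases, and 1149 bases for Auh, where they span 9580. Over merged exons, Bckdk led in both WT groups, at 15.9 FPKM in HFD WT and 15.3 in STD WT, ahead of Ivd at 11.4 and 13, whereas Ivd led in both KO groups, at 51.0 in HFD KO and 57.1 in STD KO.

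Ratios of 2 genes within a library need no scaling between libraries. Of 5 ratios, tested by an exact two-sided permutation of the genotype labels within each diet, which does not use the replicate numbers, Bckdhb over Bckdha and Bcat2 over Bcat1 differed between genotypes. With the replicate number as a block, tested by exact sign flips of 6 pairs, both had an adjusted p of 0.0781, and no flip of 6 pairs gives an unadjusted p below 0.0312. The log2 ratio of FPKM of Bckdhb to Bckdha was 2.22, 1.82 and 1.69 in HFD KO, against 1.55, 0.84 and 1.13 in HFD WT, and 1.87, 1.83 and 1.64 in STD KO, against 0.85, 1.41 and 1.22 in STD WT. All 6 KO libraries were above all 6 WT libraries, and the mean difference, KO minus WT, was 0.68 on the log2 scale (exact permutation p = 0.005, the smallest that 400 arrangements allow, 0.0125 after adjustment over the 5 ratios). Averaged over diets, the log2 fold change, KO over WT, was 0.53 for Bckdhb, which edgeR did not call, and -0.15 for Bckdha. The ratio of Bckdhb to Bckdha thus mainly restates the change of Bckdhb. Members were chosen with earlier results of these data known, so its p adds no separate support. Reads of Bckdha and B3gnt8 may also not be fully separated. The complex is assembled from both subunits, and the transcripts of its partner Dbt gave a ratio to Bckdha that did not pass, with a difference of -0.11 (exact permutation p = 0.445, adjusted 0.556).

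The ratio of Mccc2 to Mccc1 was higher by 0.26 in KO (exact permutation p = 0.055, adjusted 0.0917). The ratio of the kinase Bckdk to Ppm1k, the phosphatase that reactivates the complex, differed by 0.02 over both diets (exact permutation p = 0.82), with 0.30 on the high fat diet and -0.25 on the standard diet. The ratio of Bcat2 to Bcat1 was -0.57, -0.06 and -0.79 in HFD KO, against 3.09, 3.87 and 3.99 in HFD WT, and 0.10, -0.11 and -0.43 in STD KO, against 3.60, 3.11 and 2.10 in STD WT. The difference was -3.60 on the log2 scale (exact permutation p = 0.005, adjusted 0.0125). Averaged over diets, the log2 fold change, KO over WT, was 3.66 for Bcat1 and 0.12 for Bcat2. This ratio thus mainly restates the change of Bcat1. Bcat1 was listed with earlier results of these data known, so this p adds no support. At the deposited gene lengths, the log2 ratio lay between -0.79 and 0.10 in the KO libraries, with Bcat1 the higher in all but STD KO 1. By the same lengths Bcat2 was higher in every WT library. Levels of Bcat1 over merged exons were not compared.

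**Figure D4:**
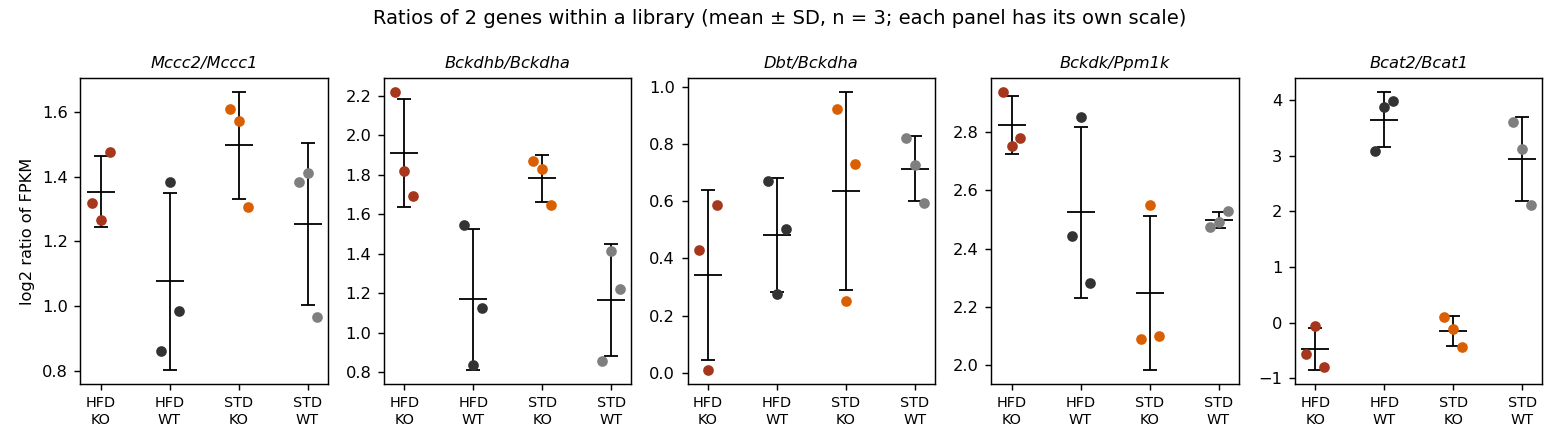
Log2 ratio of the FPKM of 2 genes within each library, for 5 pairs, in HFD KO, HFD WT, STD KO and STD WT, with points for libraries and bars for the mean and SD (n = 3), each panel on its own scale. For Bckdhb/Bckdha all KO points lie above all WT points, and for Bcat2/Bcat1 all KO points lie below all WT points.

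The rest of the pathway was described with 54 genes in 9 lists that cover the other early enzymes, the last steps of leucine, the isoleucine and valine branches, propionyl-CoA conversion, the electron acceptors of Ivd, biotin, the acyl-CoA dehydrogenases, uptake and leucine sensing. All 54 were tested, and the lists were chosen with earlier results of these data known. In HFD KO against HFD WT, 3 were higher and 3 lower, where 3.9% of all genes were higher and 3.5% lower. In STD KO against STD WT, 1 was higher and 0 lower, where 1.34% and 0.367% of all genes were. Over both diets, 2 were higher and 2 lower, where 4.17% and 3.6% of all genes were. The median log2 fold change of the 54 was 0.03 on the high fat diet and 0.00 on the standard diet, beside 0.00 and -0.02 for all genes. None of the 54 was called in a diet comparison or in the test of the difference between diets, by edgeR's quasi-likelihood test with all 12 libraries, where 9, 3 and 4 had an unadjusted p under 0.05 in KO, in WT and in the test of the difference, beside 12.5%, 4.74% and 7.91% of all genes.

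Bcat1, the cytosolic aminotransferase, rose in KO on both diets. It had 41.5, 32.2 and 49.3 CPM in HFD KO, against 2.79, 1.79 and 1.32 CPM in HFD WT, and 19.1, 32.5 and 33.5 CPM in STD KO, against 2.57, 2.72 and 5.74 CPM in STD WT. Every KO library was above every WT library, and the highest WT library was STD WT 3, which was also the highest WT library for Ivd. The log2 fold change was 4.38 on the high fat diet (SE 0.40, adjusted p = 0.000113) and 2.95 on the standard diet (SE 0.37, adjusted p = 0.00185), and both passed in every alternative. Bcat1 was listed with earlier results of these data known, so these p-values describe the difference and add no support. Without STD WT 3 and HFD KO 2 the log2 fold changes were 4.56 and 3.45. The WT values rest on 23 to 103 counts a library. The difference between the diets in this effect was 1.43 on the log2 scale (SE 0.51, adjusted p = 0.621). Of the other genes of the first steps, Dld, the dehydrogenase shared by several ketoacid complexes, gave 0.24 on the high fat diet (adjusted p = 0.249) and -0.16 on the standard diet (adjusted p = 0.943). Slc25a44, a mitochondrial carrier of branched-chain amino acids, gave -0.60 (adjusted p = 0.106) and -0.21 (adjusted p = 0.999). Ppm1k gave -0.29 (adjusted p = 0.263) and 0.13 (adjusted p = 0.999).

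Among the acyl-CoA dehydrogenases, the family to which Ivd belongs, 1 of 9 was called on the high fat diet. Gcdh, the glutaryl-CoA dehydrogenase of lysine and tryptophan breakdown, rose in HFD KO to 63.5, 44.7 and 47.9 CPM, against 34.6, 32.4 and 30.9 CPM in HFD WT (log2 fold change 0.67, SE 0.16, adjusted p = 0.0305). It had 50.3, 52.6 and 39.9 CPM in STD KO, against 33.2, 40.7 and 31.5 CPM in STD WT, with a log2 fold change of 0.44 (adjusted p = 0.372). In KO against WT averaged over diets it rose by 0.56 (SE 0.12, adjusted p = 0.0116), and that call held in all 22 alternatives. On the high fat diet alone the call was lost without HFD WT 1, 2 or 3 or HFD KO 1, with adjusted p up to 0.140, and with a correction for gene length (adjusted p = 0.0636). Syce2 overlaps Gcdh on the opposite strand and had 2333 counts over the 12 libraries, against 9040 of Gcdh. The remaining 8 dehydrogenases, which act on straight-chain and branched-chain acyl-CoAs, lay between -0.44 and 0.24 on the high fat diet and none was called.

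In propionyl-CoA conversion, the route that isoleucine and valine share, 1 of 6 genes was called. Mmab, which adenosylates the cobalamin cofactor of methylmalonyl-CoA mutase, fell in HFD KO to 9.21, 8.91 and 10.6 CPM, against 16, 14.4 and 16.1 CPM in HFD WT (log2 fold change -0.69, SE 0.14, adjusted p = 0.0139). It had 12.1, 14.5 and 11.4 CPM in STD KO, against 16.6, 15.4 and 19.1 CPM in STD WT, with a log2 fold change of -0.43 (adjusted p = 0.275). On both diets every KO library was below every WT library, and over both diets Mmab fell by 0.56 on the log2 scale (SE 0.10, adjusted p = 0.00494), a call that held in all 22 alternatives. On the high fat diet it was lost without HFD WT 1 or 3 or HFD KO 1 or 2, with adjusted p up to 0.0866. On the standard diet all 6 genes had a negative log2 fold change and none was called. There every KO library was below every WT library for 4 of 6, Mcee, Mmut, Mmaa and Mmab, where 7.32% of all genes had KO lower. On the high fat diet 1 of 6, Mmab, had groups apart, where 24.5% of all genes did.

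Of 6 transporters of branched-chain amino acids, 1 was called. Slc43a2, a facilitative carrier of large neutral amino acids, fell in HFD KO to 84.2, 58.5 and 112 CPM, against 165, 120 and 185 CPM in HFD WT (log2 fold change -0.88, SE 0.24, adjusted p = 0.0459), and in STD KO it had 118, 86.2 and 119 CPM, against 130, 158 and 136 CPM in STD WT (log2 fold change -0.39, adjusted p = 0.829). Its high fat call was lost in 8 of the 12 fits that left out 1 library, with adjusted p up to 0.172, and remained without STD WT 1, STD KO 2, HFD WT 2 or HFD KO 3. It was also lost with limma on log2(FPKM + 1) and log2(FPKM + 0.1) (adjusted p = 0.0753 and 0.0738). Averaged over diets it fell by 0.64 (adjusted p = 0.0391), and that call was lost in 9 of the 12, with adjusted p up to 0.10, and in both limma fits (adjusted p = 0.0976 and 0.0967). An antisense gene overlapping Slc43a2 had 2110 counts, against 26881 of Slc43a2. Of the 6 transporters, 5 had a positive log2 fold change on the standard diet and 4 on the high fat diet. On the standard diet Slc7a5, Slc3a2 and Slc6a15 (6 to 33 counts a library) had every KO library above every WT library. Slc43a2 had every KO library below, where 14.8% of all genes had groups apart. On the high fat diet the groups were apart for Slc3a2, higher in KO, and Slc43a2, lower, where 24.5% of all genes were.

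Of 10 genes of leucine sensing, 1 rose and 1 fell on the high fat diet. Rraga, a small GTPase that brings the kinase mTOR to lysosomes when amino acids are present, rose in HFD KO to 138, 129 and 115 CPM, against 99.7, 88.5 and 86.4 CPM in HFD WT (log2 fold change 0.47, SE 0.12, adjusted p = 0.0350). In STD KO it had 82.3, 102 and 87.5 CPM, against 92.8, 94.0 and 92.6 CPM in STD WT. Rptor, the scaffold of the mTOR complex that senses amino acids, fell in HFD KO to 26.8, 23.4 and 34.8 CPM, against 47.4, 45.1 and 47.0 CPM in HFD WT (log2 fold change -0.71, SE 0.18, adjusted p = 0.0311). In STD KO it had 38.5, 27.9 and 42.9 CPM, against 33.4, 33.8 and 30.2 CPM in STD WT. The call of Rraga was lost in 10 of the 12 fits that left out 1 library, with adjusted p up to 0.184, and remained without STD KO 2 or HFD KO 3. It was also lost with no filter on low counts (adjusted p = 0.109). The call of Rptor was lost without HFD WT 1 or 3 or HFD KO 1 or 2, with adjusted p up to 0.134, and with limma on log2(FPKM + 1) and log2(FPKM + 0.1) (adjusted p = 0.0904 and 0.0882). In a fit of the HFD groups alone the calls of Gcdh, Mmab, Slc43a2, Rraga and Rptor were all lost, with adjusted p of 0.0603 to 0.145, and that of Bcat1 remained. With the replicate block in that fit, Rraga alone of these 6 was lost (adjusted p = 0.0741). Without STD WT 3 and HFD KO 2 together, the high fat calls of Mmab, Slc43a2, Rraga and Rptor were lost and those of Bcat1 and Gcdh remained. In the high fat comparison the fold change fell with gene length over all genes (Spearman's rho = -0.307 across genes, which are not independent replicates, against -0.047 on the standard diet), and with a correction for gene length the calls of Bcat1, Mmab, Slc43a2, Rraga and Rptor remained, with adjusted p up to 0.0341, while that of Gcdh was lost. The part of the beta cell markers in these calls was not tested.

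In the other 4 lists no gene was called in any of the 6 comparisons with all 12 libraries, and the genes with the smallest p are given by value. Among those given, Acat1 and Etfa passed without HFD KO 3 in the KO diet comparison (adjusted p = 0.0378 and 0.0375), as did Hlcs in HFD KO against HFD WT (adjusted p = 0.0151). In the last steps of leucine and ketone body use, Acat1, a mitochondrial thiolase, had a log2 fold change, HFD over STD, of 0.48 in KO (adjusted p = 0.340) and 0.39 in WT (adjusted p = 1), and Bdh1, which interconverts ketone bodies, -0.49 (adjusted p = 0.423) and -0.33 (adjusted p = 1). In the isoleucine and valine branches, Aldh6a1, which makes propionyl-CoA in the valine branch, gave -0.36 in HFD KO against STD KO (adjusted p = 0.390) and -0.35 in HFD KO against HFD WT (adjusted p = 0.193), and Hibch, the hydrolase of 3-hydroxyisobutyryl-CoA, gave 0.36 in HFD KO against HFD WT (adjusted p = 0.213). Among the electron acceptors, Etfa, a subunit of the flavoprotein to which Ivd passes its electrons, gave 0.39 in HFD KO against STD KO (adjusted p = 0.366), 0.04 in HFD KO against HFD WT (adjusted p = 0.904) and -0.16 in STD KO against STD WT (adjusted p = 0.999). Its partner Etfb was counted at 0.32 to 1.42 CPM, or 5 to 23 counts a library, so its values of 0.96 (SE 0.52, adjusted p = 0.463) in HFD KO against STD KO and 0.25 (SE 0.50) in HFD KO against HFD WT are imprecise. Of the biotin genes, Hlcs, which attaches biotin to carboxylases, gave -0.35 on the high fat diet (adjusted p = 0.296), and Slc5a6, a biotin transporter, gave -0.50 in the test of the difference between diets (adjusted p = 0.642) and -0.25 on the high fat diet (adjusted p = 0.531).

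**Figure D5:**
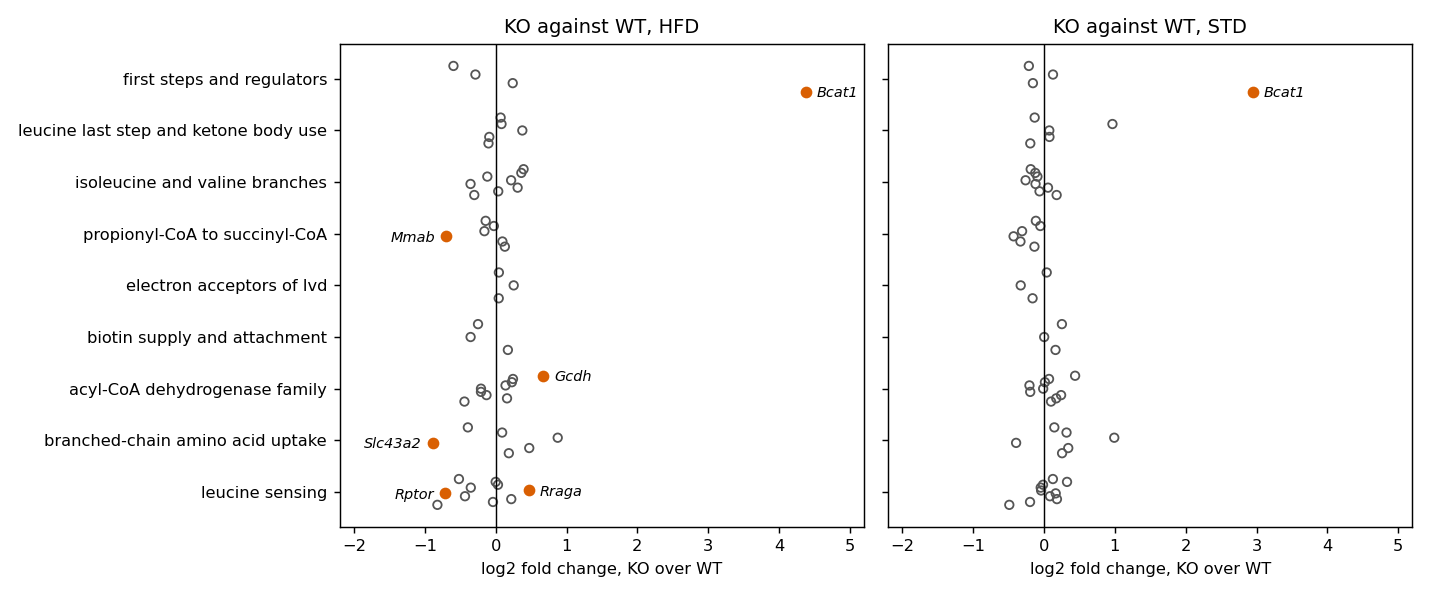
Log2 fold change, KO over WT, of 54 genes in 9 lists around the pathway, on the high fat diet (left) and on the standard diet (right), with filled orange points for genes with an adjusted p under 0.05 and open points for the rest. On the high fat diet Bcat1, Gcdh and Rraga were called as higher and Mmab, Slc43a2 and Rptor as lower, and on the standard diet Bcat1 was the 1 gene called.

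Genes with a pattern like that of Ivd were found by the Pearson correlation of log2 CPM over the 12 libraries, among 12504 tested genes. Among the 5 most alike were Syndig1, which encodes a synapse differentiation protein (r = 0.994), Tmem47 (r = 0.993), Prok1, a secreted prokineticin (r = 0.993), and Rtl10 (r = 0.992). Each was high in all 6 KO libraries and low in all 6 WT libraries. Tmem47 had 35.1, 19.1 and 25.3 CPM in HFD KO, against 1.13, 1.19 and 1.94 CPM in HFD WT, and 19.9, 20.9 and 19.0 CPM in STD KO, against 1.28, 1.58 and 2.34 CPM in STD WT. The libraries fall into 2 clusters by genotype, so r over all 12 mainly restates the KO against WT difference, and no p is given. Within the 6 KO libraries the r of these 4 genes with Ivd ran from -0.096 to 0.597, and within the 6 WT libraries from 0.802 to 0.918. In WT, Syndig1 had at most 0.22 CPM and Prok1 at most 0.61 CPM, which is near the floor. STD WT 3 was the highest WT library for these 4 genes and for Ivd, and an r without it was not computed.

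Over the 12 libraries, the r with Ivd of the other 8 members ran from -0.743 for Mccc1 to 0.735 for Bckdhb, which ranked 516 of 12504, while Bcat1 had r = 0.974 and ranked 38. Within the KO libraries the r of the 8 members ran from -0.549 for Auh to 0.641 for Mccc2, and within the WT libraries from -0.646 for Bckdk to 0.159 for Mccc1. The 12 values share their library, depth and scaling.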

How the data were processed

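Islet RNA of 12 libraries (4 groups of 3) was sequenced. The deposited tables hold raw read counts per gene, from reads aligned to mm10; the submitters' processing notes name TopHat2, Cufflinks and DESeq, with no versions. The deposited FPKM values, computed by the authors, equalled count over length and library total in all 257939 values above 0 (relative tolerance 1e-05). How reads were counted, and with which strand setting, is not given in the sources used here.

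Counts were tested with edgeR 4.0.16 (quasi-likelihood with robust estimation, TMM scaling, filterByExpr, 1 mean per group, all 12 libraries) and adjusted by Benjamini-Hochberg over 16076 genes, with a threshold of 0.05. DESeq2 1.42.0 and limma 3.58.1, with other filters, scalings, pseudocounts, replicate blocks and left-out libraries, served as alternatives. Intervals cover 95%. The common coefficient of variation between libraries was 0.307. FPKM served for levels and for ratios.

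Replicate numbers come from the sample titles. In the HFD groups same-numbered KO and WT libraries deviated together (r = 0.515, 0.41 and 0.336), so the block is given there; in the STD groups they did not (r = -0.004, -0.175 and -0.234). Members and lists were chosen with earlier results of these data known. Named genes were the members, Sirt3, every list gene past the threshold or else the 2 with the smallest p in its list, and the 5 genes most like Ivd with a mean of at least 2 CPM, leaving out predicted genes; 1 of these 5 is not reported here. Dld, Ppm1k and Slc25a44 were added after their values were seen, for their roles beside Bcat1. Symbols came from GENCODE M21 and RefSeq. Libraries of the same group all differed from each other by more than sampling noise.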

Additional observations from a re-analysis of the deposited data

How the results depend on the processing

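The count of called members other than Ivd changed from 0 to 1, which was Bckdhb, in the high fat comparison under the DESeq2 Wald test (1), limma on log2(FPKM + 1) (1), limma on log2(FPKM + 0.1) (1), the fit of the groups compared with a replicate block (1) and the replicate block among HFD libraries (1), the last being chosen after seeing the data. Averaged over diets it was also 1 under the DESeq2 Wald test, both limma fits and the replicate block among HFD libraries. Leaving out 1 library in turn gave 0 to 1 called members in the high fat comparison, in the average over diets and in the KO diet comparison, and 0 in the other comparisons. The value was 1 without HFD KO 3 in all 3 of these and without STD WT 2 in the average over diets. The cause was not tested.

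The Bckdhb to Bckdha difference was 0.65 with medians over libraries and 0.68 with a replicate block (exact sign flips of 6 pairs), with adjusted p of 0.05 and 0.0781. The Bcat2 to Bcat1 difference was -3.83 and -3.60 under the same choices, with the same adjusted p. Sign flips of 6 pairs allow no unadjusted p below 0.0312, which both ratios had, so the second loss follows from that limit. With medians of 3 libraries, other arrangements share the same difference even when the groups are fully apart. The exact permutation p with medians therefore cannot reach the 0.005 that means allow. Left-out libraries moved the Bckdhb ratio between 0.59 and 0.77, the Bcat ratio between -3.81 and -3.44, and the Mccc2 to Mccc1 ratio between 0.19 and 0.34, where it passed without HFD WT 2 (adjusted p = 0.025).

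Over all genes, 1189 were called in the high fat comparison, 2033 by DESeq2, 1969 with the replicate block among HFD libraries, 543 with the groups compared alone, 745 without STD WT 3 and HFD KO 2, and 519 to 2899 with 1 library left out. On the standard diet 275 were called, 484 by DESeq2, 135 with the groups compared and a replicate block, and 146 to 296 with 1 library left out. Averaged over diets 1249 were called, and 823 to 1909 with 1 library left out. In the KO diet comparison 7 were called, 140 by DESeq2, 0 with the block or with the groups compared alone, and 0 to 801 with 1 library left out. DESeq2 called 43 genes in the WT diet comparison and 31 in the test of the difference between diets, where edgeR called 0 in each. In the STD and diet comparisons the numbers did not pair the libraries, and the block changed no call of a member there.

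No called value changed sign. Of 2797 values below the threshold under an alternative, 137 had the other sign from the one reported. The members had at least 133 counts a library, while counts were low for Bcat1 in WT (23 to 103 a library) and for Etfb (5 to 23). The cause of these low counts was not tested.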
